A study of Mus musculus with 3 samples.

Results

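Regulatory T cells were described among live CD45+ cells of the mouse pancreas, as a set of barcodes chosen by their own transcripts. A barcode was a member if it held at least 1 UMI of Foxp3 and at least 1 UMI of Cd3e, Cd3d or Cd3g, and none of Cd8a, Cd8b1, Cd79a or Csf1r. A UMI is a molecular identifier that counts 1 captured mRNA molecule, and a barcode marks 1 droplet, taken here as 1 cell. This rule found 76 regulatory T cells among 14302 barcodes with at least 1000 UMIs and at most 30% of UMIs from mitochondrial genes.

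The animals were wild-type C57BL/6J mice of 6 to 8 weeks, male and female, with no engineered allele. Each library came from the pancreas after 1 intraperitoneal injection, given 3 or 7 days before collection for WGP (whole beta-glucan particles from Saccharomyces cerevisiae, 1 mg, groups 3-day WGP and 7-day WGP), or of 200 µl of PBS as vehicle (group PBS). CD45+ cells were sorted from collagenase digests and read with 10x Genomics 3′ chemistry. There was 1 library per group, the labels gave neither the number nor the sex of the mice in each library, and so WGP and PBS were compared as values with no test, since the treatment cannot be told apart from the library.

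Regulatory T cells are CD4 T cells whose identity is held by the transcription factor Foxp3, and they restrain other T cells through high-affinity uptake of interleukin-2, removal of costimulatory ligands by Ctla4, and secreted or surface mediators. In barrier and solid tissues many take on an effector state marked by the interleukin-33 receptor ST2 (Il1rl1), the inhibitory receptor Klrg1, the transcription factor Gata3 and amphiregulin (Areg), a growth factor tied to tissue repair. In the pancreas they are known for holding back autoimmune attack on the islets.

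PBS held 11 members of 5249 barcodes, which was 0.210% (exact 95% binomial interval 0.105 to 0.375). In 3-day WGP there were 19 of 4879, or 0.389% (0.235 to 0.607). In 7-day WGP there were 46 of 4174, or 1.10% (0.808 to 1.47). The 7-day share was the highest and its interval overlapped neither of the others, whereas the intervals of PBS and 3-day WGP overlapped. These intervals cover counting error only and not the spread between mice. Conventional CD4 T cells (at least 1 UMI of Cd4 and of a CD3 gene, with no Foxp3 and the same excluded genes) numbered 139, 149 and 149 in PBS, 3-day WGP and 7-day WGP, and CD8 T cells numbered 115, 200 and 225.

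The order of the libraries depended on the way members were counted. When each barcode was thinned to 1000 UMIs before the rule was applied, 4, 3 and 21 members were left in PBS, 3-day WGP and 7-day WGP (0.0762%, 0.0615% and 0.503%), and the 7-day share was still the highest. Among barcodes with Xist, the transcript that silences 1 X chromosome in female cells, and no Y-linked gene, the shares were 0.294%, 1.04% and 0.414%. Among barcodes with a Y-linked gene and no Xist they were 0.0576%, 0.478% and 1.88%. The 7-day share was thus far above PBS among Y-linked barcodes (35 members of 1865 against 1 of 1736) and not among Xist barcodes (5 of 1208 against 6 of 2039). Of the members, 6 in PBS had Xist and 1 a Y-linked gene, against 5 and 35 in 7-day WGP, and the part of this in the share was not tested.

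**Figure D1:**
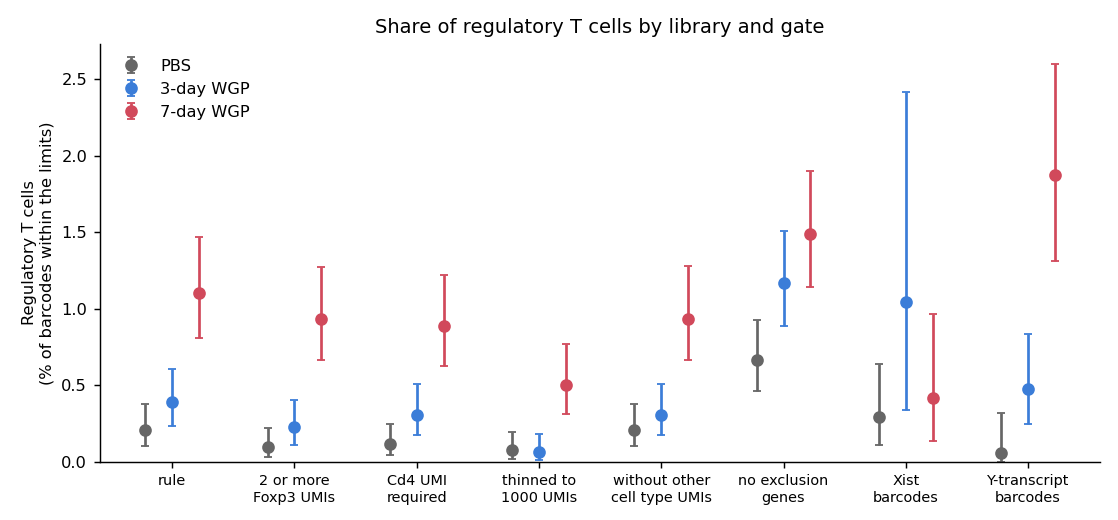
Regulatory T cells as a percentage of barcodes (y axis) in the PBS, 3-day WGP and 7-day WGP libraries under each way of counting, with exact 95% binomial intervals as bars. In most settings 7-day WGP is the highest at 1.10% as counted here, and within Xist barcodes 3-day WGP is, at 1.04%.

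The exclusions also set the count. Barcodes with Foxp3 and a CD3 gene that were left out numbered 24 (0.457% of all), 38 (0.779%) and 16 (0.383%), again in the order PBS, 3-day WGP, 7-day WGP. Of these, 18, 30 and 4 were left out by Cd79a, a B cell receptor subunit, and their median depth was 19053.5, 33670 and 30392.5 UMIs, against 4293, 7867 and 6513.5 in the members. With no exclusion the shares were 0.667%, 1.17% and 1.49%, in the same order. Foxp3 itself was rare in B cells: 0 of 2050 in PBS held a UMI, 1 of 1215 in 3-day WGP and 2 of 631 in 7-day WGP. Of all barcodes with Foxp3, 0 of 35, 1 of 58 and 7 of 69 had no CD3 gene. Barcodes too shallow to be cells held 8, 5 and 42 Foxp3 UMIs, among 4033894, 3941221 and 4641398 UMIs in all. The part of such free RNA in the shares was not tested.

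The values that chose the members are a description. Foxp3 had a median of 1, 2 and 3 UMIs per member in PBS, 3-day WGP and 7-day WGP, with maxima of 11, 8 and 11. Just inside the threshold lay the 21 of 76 members with exactly 1 Foxp3 UMI, and 55 had 2 or more. Cd4 was not part of the rule and stood at 0 in 18 of the 76, in 5, 4 and 9 members of the 3 libraries. The members' UMIs summed to 58391, 160799 and 555995 in the same order, and the deepest single member gave 22.3%, 12.7% and 9.36% of them. In PBS a gene's value could therefore rest on a few cells.

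Transcripts of other cell types were present in some members. The B cell gene Ms4a1 was at 0 in the PBS and 3-day members. Levels are given as CPM, the UMIs of a gene over all members of a library scaled to a total of 1000000 UMIs. The B cell list, which includes Cd74, summed to 1472.8, 2400.5 and 2147.5 CPM in PBS, 3-day WGP and 7-day WGP, the macrophage list to 120, 255 and 108, the NK cell list to 0, 74.6 and 32.4, the dendritic cell list to 0, 62.2 and 133, and the acinar list, digestive enzymes of the exocrine pancreas, to 51.4, 80.8 and 84.5. Of the members, 0 of PBS, 4 of 3-day WGP and 7 of 7-day WGP carried at least 20 UMIs of the antigen-presentation gene Cd74 or at least 5 of the macrophage, NK cell, dendritic cell or acinar list, and these held 28.3% and 24.0% of the members' UMIs at 3 and 7 days. Results were therefore also computed without them.

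The label was checked against markers that the rule did not use. Ctla4, the inhibitory receptor that strips costimulatory ligands from antigen-presenting cells, was seen in 10 of 11 members in PBS, 15 of 19 in 3-day WGP and 45 of 46 in 7-day WGP. After thinning to 1000 UMIs a cell, its share was 36.4%, 47.4% and 60.9%, against 10.1%, 6.71% and 17.4% of conventional CD4 T cells and 1.37%, 2.88% and 3.17% of B cells. Ikzf2, which encodes the Foxp3 partner Helios, behaved alike at 54.5%, 52.6% and 60.9% of members, against 7.19%, 8.05% and 16.1% of conventional CD4 T cells. Over the 25 core genes, both of these among them, the median share of members after thinning was lower, at 9.09%, 15.8% and 15.2%. As point values, with 11 members in PBS, Ctla4 and Ikzf2 were above conventional CD4 T cells in every library. Ctla4 was also above the B cell background, and the name regulatory T cells was kept.

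To ask how these cells differed from their closest relatives, UMIs were summed per class and library and regulatory T cells were set against conventional CD4 T cells over the 3 libraries, with library as a block (edgeR quasi-likelihood test, Benjamini-Hochberg adjusted over all 6812 genes tested). In this test 303 genes passed an adjusted p of 0.05 (4.45% of those tested), of which 140 (2.06%) were higher and 163 (2.39%) lower in regulatory T cells. The median log2 difference over all genes tested was -0.04. The p-values measure only the spread between these 3 libraries, which are 3 treatments, and not between replicate mice.

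Genes of the core regulatory T cell program were higher. Of 25 listed, 20 were tested, 12 were higher and 0 lower, and their median log2 difference was 1.39. Lrrc32, which encodes GARP, the surface anchor of latent TGF-beta (chr7:98489283-98502181, GRCm38), had 4, 10 and 28 UMIs in the members of PBS, 3-day WGP and 7-day WGP, or 68.5, 62.2 and 50.4 CPM. In conventional CD4 T cells it had 1, 0 and 1 UMIs. The ranges did not overlap, and the log2 difference was 5.94 ± 0.70 (SE, edgeR adjusted p = 1.1e-05).

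Transcription factors of this program behaved likewise. Ikzf2 (chr1:69531214-69687245) stood at 1729.7, 1318.4 and 1217.6 CPM in regulatory T cells of PBS, 3-day WGP and 7-day WGP, and at 139.8, 126.2 and 190.4 in conventional CD4 T cells. All 3 libraries lay far above all 3 conventional values, and the log2 difference was 3.03 ± 0.20 (edgeR adjusted p = 3.0e-09). Its relative Ikzf4 (Eos), a co-repressor with Foxp3, was at 85.6, 37.3 and 43.2 against 5.68, 0 and 7.25 CPM, a log2 difference of 3.31 ± 0.61 (edgeR adjusted p = 0.0013).

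Receptors at the surface were the larger group. Il2ra, the high-affinity interleukin-2 receptor chain CD25 (chr2:11642807-11693193), had 8, 46 and 128 UMIs in 6, 12 and 28 members, or 137, 286 and 230 CPM, against 20.5, 7.18 and 55.3 in conventional CD4 T cells. The groups did not overlap and the log2 difference was 2.88 ± 0.39 (edgeR adjusted p = 7.2e-05). Ctla4 (chr1:60887000-60915832) was at 685, 703 and 1001.8 CPM against 77.3, 79.0 and 218, and its log2 difference was 2.61 ± 0.23 (edgeR adjusted p = 1.7e-07). The inducible costimulator Icos passed with a smaller log2 difference of 0.95, a call that was lost in 5 of 15 alternatives.

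The TNF receptor family, which carries costimulatory signals that sustain regulatory T cells, had 14 genes tested, of which 5 were higher and 0 lower, with a median log2 difference of 0.58. Tnfrsf4 (OX40, chr4:156013843-156016612) was at 925, 964 and 1365.1 CPM in regulatory T cells of PBS, 3-day WGP and 7-day WGP and at 125, 88.2 and 331 in conventional CD4 T cells. That is a log2 difference of 2.58 ± 0.23 with no overlap (edgeR adjusted p = 1.8e-07). Tnfrsf9 (4-1BB) was at 34.3, 124 and 371 against 29.5, 11.3 and 61.7 CPM, so its PBS value lay among the conventional ones, and it passed with a log2 difference of 2.34. Tnfrsf18 (GITR), Tnfrsf1b (the TNF receptor TNFR2) and the adaptor Traf1 were the other 3.

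**Figure D2:**
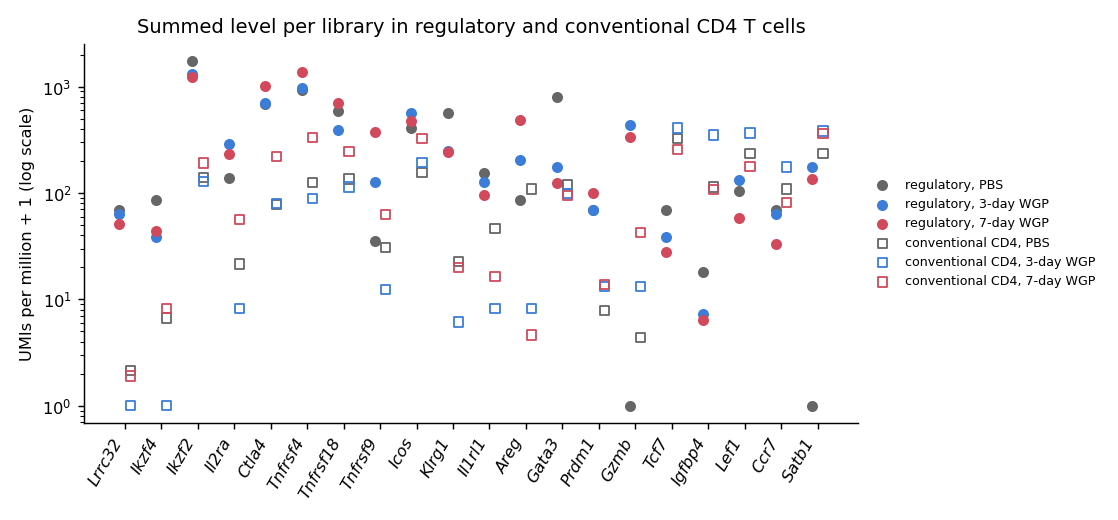
Level of named genes in CPM + 1 (log y axis) in regulatory T cells and conventional CD4 T cells, with 1 point per library and class. Points of regulatory T cells lie above all conventional points for Ikzf2, Ctla4, Tnfrsf4 and Il2ra and below them for Tcf7.

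Genes of the tissue effector state were higher as well. Of 32 listed, 27 were tested, 16 were higher and 1 lower, with a median log2 difference of 0.91. The count of those higher was 10 without the deepest member of each library, without the members that carried UMIs of other cell types, or without the 3-day WGP library, 8 with no library block, and 7 with DESeq2. Klrg1 (chr6:122270596-122282882) had 33, 40 and 133 UMIs in 7, 7 and 23 members of PBS, 3-day WGP and 7-day WGP, or 565, 249 and 239 CPM, against 21.6, 5.13 and 19.0 in conventional CD4 T cells. PBS was the highest, no group overlapped, and the log2 difference was 4.27 ± 0.32 (edgeR adjusted p = 1.3e-08). Il1rl1 (chr1:40429570-40465415) was at 154, 124 and 95.3 against 45.5, 7.18 and 15.4 CPM, with a log2 difference of 2.55 ± 0.38 (edgeR adjusted p = 0.0002).

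Areg (chr5:91139599-91148432) was uneven. It had 5, 33 and 268 UMIs in 2, 5 and 15 members, or 85.6, 205 and 482 CPM in PBS, 3-day WGP and 7-day WGP. Conventional CD4 T cells had 108, 7.18 and 3.63. Regulatory T cells were higher at 3 and 7 days and lower in PBS, and the log2 difference over the 3 libraries was 3.51 ± 0.66 (edgeR adjusted p = 0.0018), a call that was lost with DESeq2, without the deepest member of each library and without the members that carried UMIs of other cell types.

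Transcription factors of the effector state included Prdm1 (Blimp-1, log2 difference 2.68), Nfil3 (2.42), Maf (0.91) and Gata3 (1.14). Gata3 (chr2:9857078-9890034) stood at 805, 174 and 124 CPM in regulatory T cells against 118, 98.5 and 94.3, and 30 of its 47 UMIs in PBS came from 1 member. It passed narrowly (edgeR adjusted p = 0.045), and without the PBS library its log2 difference was 0.45 and no longer passed. Penk, which encodes the opioid precursor proenkephalin, had 0, 21 and 95 UMIs, from 0, 3 and 4 members. The chemokine receptor Cxcr6 was the listed gene that was lower, at 85.6, 118 and 77.3 against 119, 116 and 311 CPM, with a log2 difference of -1.25, and the groups overlapped. Its call was lost in 7 of the 14 alternatives in which it was tested.

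The co-occurrence of these markers in single members is a description. Of the 76, 37 held a UMI of Klrg1, 26 of Il1rl1 and 19 of both. Areg was found in 22, of which 14 also held Klrg1. Of the 26 with Il1rl1, 20 also held Gata3. Cxcr3, the chemokine receptor of type 1 T cells, was found in 33 members (8 of them also with Il1rl1), and its controller Tbx21 (T-bet) in 12. At these depths a member with no UMI of a gene may still express it.

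Genes of suppression were counted in 14 tested, of which 5 were higher and 0 lower, with a median log2 difference of 0.74. Gzmb, the cytotoxic protease granzyme B (chr14:56258838-56262260), had 0, 70 and 188 UMIs in 0, 8 and 20 members of PBS, 3-day WGP and 7-day WGP, or 0, 435 and 338 CPM. The top member gave 28 of the 70 UMIs at 3 days and 26 of the 188 at 7 days. In conventional CD4 T cells Gzmb was at 3.41, 12.3 and 41.7. Regulatory T cells were higher at 3 and 7 days only, and the log2 difference was 3.57 ± 0.38 (edgeR adjusted p = 3.1e-06).

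The others were Ebi3, the interleukin-35 subunit (log2 difference 1.92), Entpd1, the ectonucleotidase CD39 (1.87), Fgl2 (1.63) and the galectin Lgals1 (0.81). Without the deepest member of each library, without the 7-day WGP library or with DESeq2 2 of the list passed, and without the members that carried UMIs of other cell types 3 did. The cytokine Il10 had 7, 2 and 1 UMIs and was too low to be tested. Tgfb1 did not pass, at 85.6, 149 and 160 CPM against 84.1, 58.5 and 110.

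Resting and recirculation genes were lower. Of 18 tested, 0 were higher and 10 lower (6 lower with no library block), with a median log2 difference of -1.37. Igfbp4 had 1, 1 and 3 UMIs in the members of PBS, 3-day WGP and 7-day WGP, or 17.1, 6.22 and 5.40 CPM, against 113, 349 and 107 in conventional CD4 T cells, a log2 difference of -4.70 ± 0.45 (edgeR adjusted p = 5.8e-07). Tcf7 (chr11:52252371-52283014), the factor that keeps T cells in a naive or memory state, was at 68.5, 37.3 and 27.0 against 325, 407 and 254, with a log2 difference of -3.27 ± 0.30 (edgeR adjusted p = 3.2e-07). All 3 libraries lay below all 3 conventional values for both genes.

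Lef1 (a partner of Tcf7, log2 difference -1.65), Satb1 (-1.68), the survival factor Bcl2 (-1.98), the lymph node homing receptor Ccr7 (-1.42) and the egress receptor S1pr1 were also among the 10. Among all genes the lowest log2 difference of the named ones belonged to the neuropeptide receptor Vipr1, with 0 UMIs in the members of every library and 19, 35 and 16 UMIs in conventional CD4 T cells (edgeR adjusted p = 0.0059).

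Helper T cell effector genes were few. Of 12 tested, Gata3 and Maf were higher and Ifng, the type 1 cytokine interferon-gamma, was lower, at 85.6, 6.22 and 59.4 CPM in regulatory T cells of PBS, 3-day WGP and 7-day WGP against 83.0, 127 and 301. Its log2 difference was -2.34 (edgeR adjusted p = 0.00058), and the PBS values were close. Of 22 genes of T cell receptor activation, Nfkbia, the inhibitor of NF-kappaB, was higher, and the ligands Tnfsf8 (CD30L) and Cd40lg, by which helper T cells act on B cells, were lower, with log2 differences of -3.12 and -2.74. Cd40lg was higher in PBS, at 85.6 against 58.0 CPM, and lower in both WGP libraries. Its call was lost in 4 alternatives, among them DESeq2 and leaving out the deepest members. Of 16 genes of interleukin-2 and STAT5 signalling, Il2ra and the kinase Pim1 were higher and Bcl2 was lower. Of 15 checkpoint and costimulation genes Ctla4 and Icos were higher, and Cd7 and Cd226, the activating receptor that competes with Tigit, were lower. The call was lost in 5 of 15 alternatives for Icos, 5 of 14 for Cd7 and 4 of 14 for Cd226. With DESeq2, with no library block or without the deepest members, 0 of this list were lower.

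Trafficking receptors went both ways in the main test, and the lower calls depended on the settings. Of 23 homing genes tested, 3 were higher and 5 lower. With DESeq2, with no library block or without the deepest member of each library, 2 were higher and 0 lower. Without the 7-day WGP library 2 were higher and 1 lower. Itgav, the integrin alpha chain that can free active TGF-beta from its latent form (chr2:83724397-83806916), was at 206, 118 and 248 CPM in regulatory T cells of PBS, 3-day WGP and 7-day WGP against 42.1, 19.5 and 39.9. The groups did not overlap, and the log2 difference was 2.37 ± 0.28 (edgeR adjusted p = 1.5e-05). Ccr3 and Ccr9 were the others that were higher, on 18 and 31 UMIs in all, and Ccr7, Cxcr6, Itgb1, the oxysterol receptor Gpr183 and S1pr1 were lower. Among the alternatives in which each was tested, Cxcr6 lost its call in 7 of 14, Ccr7 in 4 of 14 and Ccr9 in 3 of 7.

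Cell cycle genes depended on the cells and settings used. Of 26 tested, 6 were higher and 0 lower, with a median log2 difference of 0.79, and without the deepest member of each library 1 was higher and the median was 0.19. Without the members that carried UMIs of other cell types 1 was higher, without the 7-day WGP library 2, and without the 3-day WGP library 11. With at least 2 Foxp3 UMIs per member 16 were higher, with at least 1 Cd4 UMI 14, and with no library block 3. Mki67, the marker of dividing cells, had 17, 87 and 193 UMIs in 2, 3 and 19 members, of which 16 in PBS and 80 in 3-day WGP came from 1 member each, while at 7 days it was spread over members. Its log2 difference was 1.17 (edgeR adjusted p = 0.0041) and, without those deepest members, -0.22. The histone variant H2afz, at 2825.8, 1455.2 and 2663.7 against 818, 857 and 825 CPM, was the one still past the threshold without them. Ribosomal protein genes were lower in 60 of 90 tested and higher in 0, with a median log2 difference of -0.56.

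**Figure D3:**
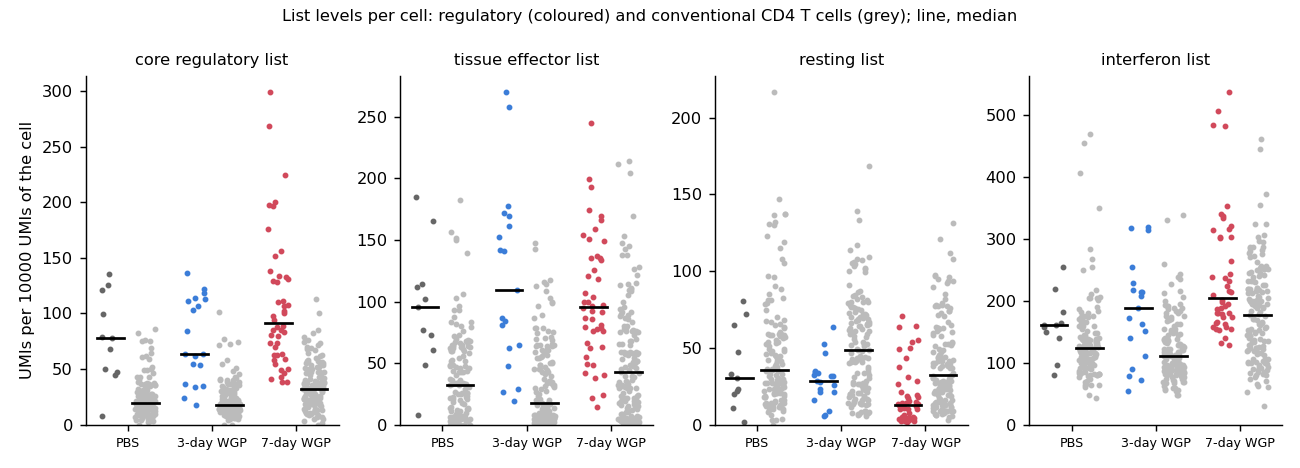
Summed UMIs per 10000 of each gene list (y axis) in each regulatory T cell and conventional CD4 T cell, by library, with the median as a line. In the core list the medians were 78.3, 63.6 and 91.2 in regulatory T cells and 19.9, 17.8 and 32.5 in conventional CD4 T cells of PBS, 3-day WGP and 7-day WGP.

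The same lists were read cell by cell, as the plot of lists in each cell shows. For the tissue effector list the medians per regulatory T cell were 95.5, 109 and 95.2 UMIs per 10000 in PBS, 3-day WGP and 7-day WGP, against 32.0, 18.0 and 43.2 in conventional CD4 T cells. For the resting list they were 30.3, 28.8 and 13.1 against 35.7, 48.4 and 32.4. The medians of regulatory T cells were higher for the first list and lower for the second in each library, and in the resting list the 7-day members stood lowest.

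A second reference was CD8 T cells, which share the tissue and the receptor complex but have a killer program. In the same edgeR test 485 of 6306 genes passed (7.69%), 232 higher (3.68%) and 253 lower (4.01%) in regulatory T cells. Of 21 core genes tested 15 were higher and 1 lower, with a median log2 difference of 2.53, and of 26 tissue effector genes 16 were higher and 1 lower. Tnfrsf4 had a log2 difference of 5.98 ± 0.52, Areg of 6.17 ± 0.51 and Il1rl1 of 4.14 ± 0.47 (edgeR adjusted p = 3.5e-05, 3.5e-05 and 0.00016).

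Cytotoxic genes split in this comparison. The pore-forming perforin, Prf1, was lower by a log2 difference of -2.15 ± 0.44 and the granzyme Gzma by -3.15 ± 0.66 (edgeR adjusted p = 0.0091 and 0.010). Gzmb did not pass, at a log2 difference of 0.59 ± 0.57 (edgeR adjusted p = 0.69). It was at 0, 435 and 338 CPM in regulatory T cells of PBS, 3-day WGP and 7-day WGP and at 213, 72.0 and 229 in CD8 T cells, lower in PBS and higher in both WGP libraries, and the WGP libraries were not tested alone. The interferon list had 7 of 37 higher and 1 lower, and 12 of 17 resting genes were lower with 0 higher.

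To ask how the cells differed after WGP, the sums of each WGP library were set against PBS, with genes counted where the level in CPM differed at least 2-fold, at least 20 UMIs stood in the pair and at least 5 members of the higher library held the gene. At 3 days 202 of 1756 genes were higher (11.5%) and 70 lower (3.99%), and at 7 days 798 of 4301 were higher (18.6%) and 184 lower (4.28%). With TMM factors the splits were 251 against 44 and 1053 against 120. For 78 of the 202 and 188 of the 798 the exact 95% interval of the ratio left out equal levels, as it did for 48 of the 70 and 133 of the 184 lower ones. PBS rested on 11 cells, and 5 members are easier to reach among the 19 or 46 of a WGP library. The split between higher and lower follows in part from this rule, and how far was not tested.

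Interferon-induced genes were among those higher at 7 days. Of 33 counted, 16 were at least 2-fold higher and 1 lower, beside 18.6% and 4.28% of all genes counted. The median log2 ratio was 0.88 beside 0.10 over all genes counted. Without the members that held UMIs of other cell types it was 15 higher and 1 lower of 31, and without the deepest member of each library 15 and 0 of 33. At 3 days 2 of 17 were higher and 1 lower, beside 11.5% and 3.99% of all genes counted, so the share that was higher was close to that of all genes. Cell by cell, the median of the list was 161, 188 and 205 UMIs per 10000 in regulatory T cells of PBS, 3-day WGP and 7-day WGP and 124, 111 and 177 in conventional CD4 T cells, so both classes were highest at 7 days. The GTPases and signalling factors in this list answer to interferon-gamma or to type I interferon and arm cells against intracellular microbes.

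Ly6a (Sca-1, chr15:74994877-74998031) had 14, 142 and 1028 UMIs in 6, 14 and 44 members of PBS, 3-day WGP and 7-day WGP, or 240, 883 and 1848.9 CPM. Its log2 ratio to PBS was 1.88 (exact 95% interval 1.09 to 2.79) at 3 days and 2.95 (2.19 to 3.82) at 7 days. The 3 libraries stood in order with no overlap of PBS with either, and in conventional CD4 T cells the 7-day ratio was 1.09.

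Several of the group were nearly or wholly absent from the PBS members. Gbp2, a guanylate-binding protein (chr3:142620602-142638008), had 0, 6 and 112 UMIs in 0, 5 and 29 members, which made the 7-day level at least 1.97 higher on the log2 scale against a floor of 3 UMIs in PBS. The ubiquitin-like Isg15 (chr4:156199424-156200818) had 1, 7 and 99 UMIs in 1, 6 and 23 members, with a 7-day log2 ratio of 3.38 (0.87 to 8.70), against -0.29 in conventional CD4 T cells. The Gbp2 and Isg15 ratios cannot be ranked against each other. Only a count of 0 was set to the floor, and the 1 UMI of Isg15 in PBS was used as it stood. The GTPase Igtp was at 68.5, 174 and 297 CPM, with a 7-day log2 ratio of 2.12 (0.73 to 4.01), and Irgm1 had 1, 4 and 59 UMIs. All of these were highest at 7 days, in many members rather than in 1: the deepest source gave 20 of the 99 Isg15 UMIs and 22 of the 112 of Gbp2. The plot of interferon gene ratios holds genes chosen for their ratio in regulatory T cells, so a higher value there than in conventional CD4 T cells follows in part from the choice, and whether the 2 classes differed was not tested.

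**Figure D4:**
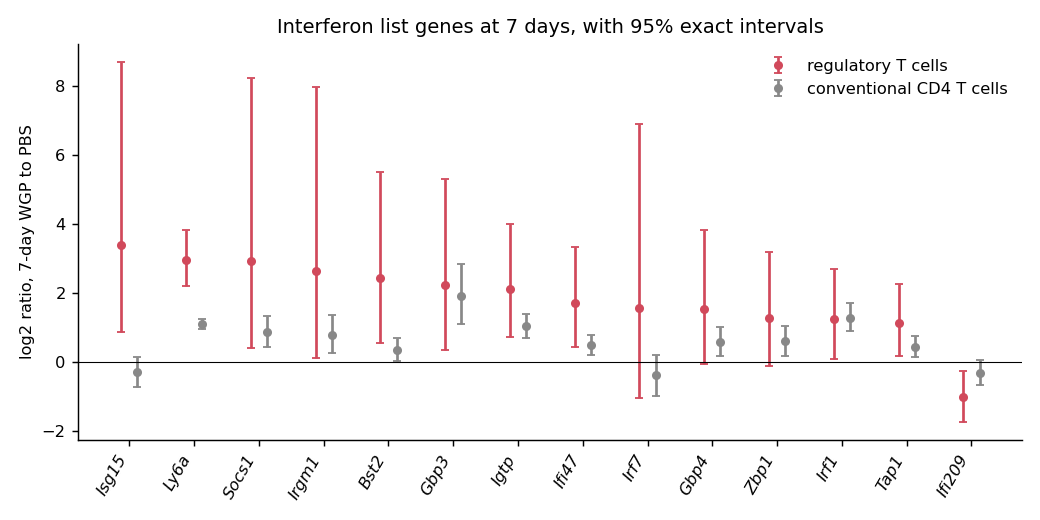
Log2 ratio of 7-day WGP to PBS (y axis) for interferon list genes past the fold in regulatory T cells (red) and for the same genes in conventional CD4 T cells (grey), with exact 95% intervals that cover counting error only. Ly6a lies at 2.95 and 1.09, Isg15 at 3.38 and -0.29, and not every gene past the fold is drawn, among them Gbp2 with 0 UMIs in the PBS members.

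The promoters of this group are shown because many of its genes were higher together at 7 days, and the letters GAAANNGAAA are those of the interferon-stimulated response element. RefSeq promoters (build GRCm38.p6, 250 bases before to 50 after the start of transcription) were searched on both strands, the other strand reading TTTCNNTTTC, with overlapping matches kept. Of the 16 genes past the fold at 7 days 11 had an entry and 7 of these held a match (63.6%), namely Isg15, Gbp2, Gbp3, Igtp, Irgm1, Bst2 and Socs1. Of the whole list 15 of 28 did (53.6%), and of all 32851 promoters 1131 did (3.44%). In the lines below each sequence runs 5′ to 3′ on the strand of the gene, and capitals mark the matches. Isg15 (chr4:156200769-156201068, minus strand) held 3 overlapping matches that began 78, 72 and 66 bases before the start, Gbp2 (chr3:142620413-142620712, plus strand) held 1 at 59 bases, and Irgm1 (chr11:48871371-48871670, minus strand) held 2 at 30 and 24 bases.
Isg15: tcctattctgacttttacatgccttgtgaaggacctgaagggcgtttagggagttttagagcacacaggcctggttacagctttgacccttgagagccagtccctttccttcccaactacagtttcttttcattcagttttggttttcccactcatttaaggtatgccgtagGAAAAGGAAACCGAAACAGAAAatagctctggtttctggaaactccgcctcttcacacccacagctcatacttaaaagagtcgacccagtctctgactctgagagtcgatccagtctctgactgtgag
Gbp2: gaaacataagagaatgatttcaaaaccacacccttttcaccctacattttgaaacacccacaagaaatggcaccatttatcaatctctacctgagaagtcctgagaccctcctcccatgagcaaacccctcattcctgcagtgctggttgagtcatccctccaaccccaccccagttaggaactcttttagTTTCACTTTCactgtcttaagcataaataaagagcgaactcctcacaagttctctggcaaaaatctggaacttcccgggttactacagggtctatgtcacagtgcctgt
Irgm1: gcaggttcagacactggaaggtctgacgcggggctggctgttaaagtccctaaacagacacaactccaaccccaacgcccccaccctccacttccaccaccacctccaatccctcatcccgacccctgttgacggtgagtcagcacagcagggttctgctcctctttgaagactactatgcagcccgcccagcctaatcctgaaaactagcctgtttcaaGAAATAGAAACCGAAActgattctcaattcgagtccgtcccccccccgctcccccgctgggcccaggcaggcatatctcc
A match is a description of the letters and not of binding, and the list was chosen for its interferon genes.

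A receptor and an adhesion molecule outside the interferon list were among the 10 largest ratios at 7 days. Tnfrsf9 had 2, 20 and 206 UMIs in 2, 10 and 35 members, with a 7-day log2 ratio of 3.44 (1.56 to 6.49). The adhesion molecule Icam1 had 1, 10 and 113 UMIs, a log2 ratio of 3.57 (1.06 to 8.89) beside 1.97 in conventional CD4 T cells. The 7-day members were highest for both genes, and the Icam1 ratio had the same sign in both classes.

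Ifitm3, an antiviral membrane protein, and Plac8 had 7-day ratios of 4.22 (1.72 to 9.53) and 3.80 (1.30 to 9.12) on the log2 scale, each against 1 UMI in PBS. They came from few cells: 84 of 177 Ifitm3 UMIs and 60 of 133 Plac8 UMIs were from 1 member each, and 13 and 8 members held them. H2-Aa, an MHC class II chain of antigen-presenting cells, had 127 UMIs at 3 days, 122 of them in 1 member, and 449 at 7 days, of which 253, 98 and 92 were in 3 members.

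Gzmb stood at 0 UMIs in the PBS members and, as given above, at 70 and 188 in 8 and 20 members after WGP, at least 3.08 and 2.72 higher on the log2 scale. At 3 days 28 of the 70 UMIs came from 1 member. With 58391 UMIs in all, 0 in PBS allows up to 3 UMIs. In conventional CD4 T cells the log2 ratios were 1.85 and 3.61, from lower levels. Areg had a log2 ratio of 1.26 (-0.11 to 2.98) at 3 days and of 2.49 (1.25 to 4.13) at 7 days, where it was held by 15 of 46 members and 61 of 268 UMIs came from 1 of them. In conventional CD4 T cells it was lower after WGP, with ratios of -3.91 and -4.90.

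The tissue effector list held genes on either side, as the plot of levels by library shows. At 3 days 3 of 20 were higher and 5 lower, beside 11.5% and 3.99% of all genes counted. At 7 days 3 of 26 were higher and 5 lower, beside 18.6% and 4.28%. The share of the list that was lower was above that of all genes at both times. Klrg1 was lower, with log2 ratios of -1.18 (-1.89 to -0.47) and -1.24 (-1.80 to -0.64), and was held by 7 of 11, 7 of 19 and 23 of 46 members. Gata3 had ratios of -2.21 and -2.70 and Rora, a nuclear receptor of tissue lymphocytes, -1.19 and -1.27. PBS was the highest library for all 3, with 1 member giving most of the Gata3 UMIs there.

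Ctla4 and Ikzf2 differed less than 2-fold between libraries, with log2 ratios of 0.04 and -0.39 at 3 days and 0.55 and -0.51 at 7 days. Of the core list 4 of 14 were higher and 1 lower at 3 days, and 1 of 20 and 0 at 7 days. Over all genes counted the shares were 11.5% and 3.99% at 3 days, and 18.6% and 4.28% at 7 days. Il2ra had ratios of 1.06 (-0.04 to 2.36) and 0.75 (-0.27 to 1.99), whose intervals include equal levels.

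**Figure D5:**
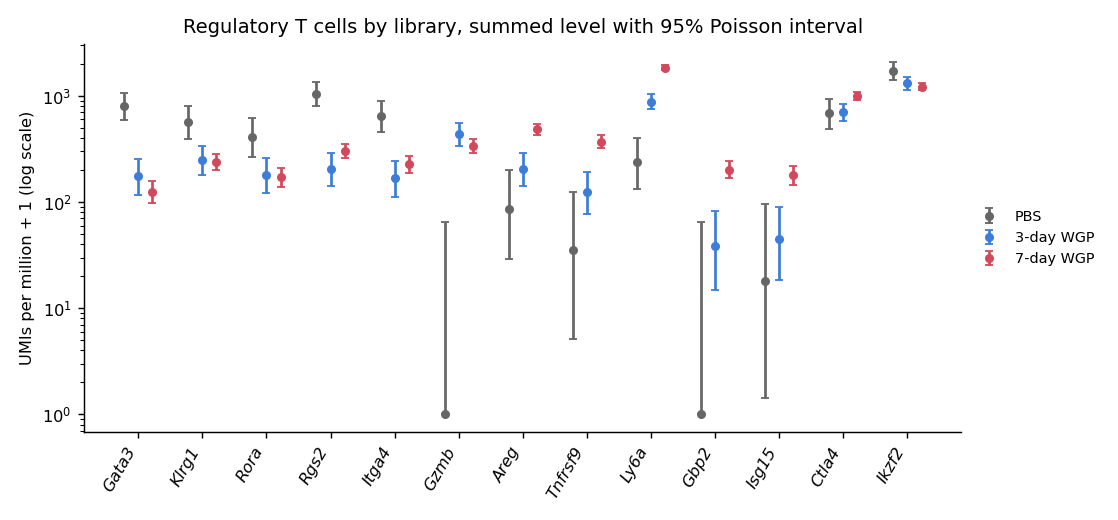
Levels of named genes in regulatory T cells in CPM + 1 (log y axis) for PBS, 3-day WGP and 7-day WGP, with exact 95% Poisson intervals that cover counting error only. Gata3, Klrg1 and Rgs2 are highest in PBS, at 805, 565 and 1044.7 CPM, and Ly6a, Tnfrsf9 and Areg in 7-day WGP, at 1848.9, 371 and 482.

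Lower levels after WGP were found for quiescence and stress genes. Klf2, which sustains egress receptors in resting T cells, was at 1027.6, 585 and 205 CPM in PBS, 3-day WGP and 7-day WGP, with a 7-day log2 ratio of -2.33 (-2.79 to -1.85). The interleukin-7 receptor Il7r was at 582, 479 and 183, with a ratio of -1.67 (-2.24 to -1.06). Both were lowest at 7 days, and in conventional CD4 T cells the 7-day ratios were -0.35 and 0.08. Satb1 went the other way, with 0 UMIs in PBS against 28 and 75 in 3-day WGP and 7-day WGP.

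Immediate early and heat shock genes, which tissue digestion can induce, had 1 of 22 higher and 6 lower at 3 days (median log2 ratio -0.67) and 3 higher and 5 lower at 7 days (median -0.62). Among all genes counted 11.5% were higher and 3.99% lower at 3 days, and 18.6% and 4.28% at 7 days. Junb, an AP-1 subunit, was at 2312.0, 672 and 1165.5 CPM. Rgs2, a brake on G protein signalling counted in the tissue effector list, was at 1044.7, 205 and 302. PBS was the highest in both, and there 1 member gave 59 of 135 Junb UMIs and 1 gave 31 of 61 Rgs2 UMIs. The part of the digestion in these values was not tested.

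At 7 days 7 of 24 cell cycle genes were higher and 0 lower, beside 18.6% and 4.28% of all genes counted. Their median log2 ratio was 0.06, beside 0.10 over all genes counted. Without the deepest member of each library 13 were higher and 0 lower, with a median of 1.46 beside 0.07 over all genes. The replication genes Mcm6 and Rrm2 had 2, 19 and 116 and 2, 10 and 132 UMIs, and log2 ratios of 2.61 (0.72 to 5.67) and 2.79 (0.91 to 5.85) at 7 days. In conventional CD4 T cells their ratios were -0.46 and -1.28. Mki67 was held by 2 of 11, 3 of 19 and 19 of 46 members, and with Top2a, a topoisomerase of dividing cells, in 16 of the 46 at 7 days.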

How the data were processed

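The authors sequenced 3 libraries of CD45+ pancreas cells and deposited raw UMI counts per gene and barcode, with empty droplets still included (6794880 barcodes per library), made with Cell Ranger 3.1.0 on the mm10 (GRCm38) genome. These deposited counts were used as they stand. The cell filter of at least 1000 UMIs and at most 30% mitochondrial UMIs was applied here, which left 5249, 4879 and 4174 barcodes in PBS, 3-day WGP and 7-day WGP, and libraries summed to 52464690, 56849043 and 48219246 UMIs. The members and the gene lists were chosen with earlier results of these data known. The libraries shared 9, 1 and 5 barcode sequences, of which 0 were members.

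Counts were summed per class and library and tested with edgeR 4.0.16 in R 4.3.3 (TMM, filterByExpr, quasi-likelihood test with library as a block, 2 residual degrees of freedom), with Benjamini-Hochberg adjustment over all genes tested. Named genes were the 12 highest and 12 lowest past an adjusted p of 0.05 with at least 30 UMIs and the same sign in all 3 libraries, up to 5 per list, and, against PBS, the 10 largest ratios each way and list genes past the fold. The sign was taken after a small constant was added to each count. Gzmb and Penk, with 0 UMIs in the PBS members, therefore scored as higher there. Other genes described were picked from the lists after their values were seen. The WGP libraries were compared with PBS as values, since each group had 1 library: levels have exact Poisson intervals, ratios and shares exact binomial ones at 95%, and a count of 0 was set to a floor of 3 UMIs. Counts of 1 or 2 were kept as they stood, so a ratio against such a count can exceed a ratio against 0. PCR duplicates are removed by UMIs, and intervals cover counting error only. Genes used by the rule were left out of tests. Doublet scores (Scrublet in scanpy 1.11.5) marked 0, 1 and 1 barcodes automatically, so the highest scores at 0.8% per 1000 barcodes were taken as an alternative (220, 190 and 139 barcodes, of which 0, 0 and 2 were members). The test step was checked on simulated counts. Alternatives were DESeq2 1.42.0, other filters and gates, thinning to 1000 UMIs a cell, and leaving out libraries or members. The matrices hold 3′ counts, so no level was compared between genes. A few genes are not reported here, but they count in the totals of the lists.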

Additional observations from a re-analysis of the deposited data

Results flagged for a closer look

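Several genes had ratios to PBS of opposite sign in regulatory and conventional CD4 T cells, and none of these differences was tested. At 7 days Areg had a log2 ratio of 2.49 in regulatory T cells and -4.90 in conventional CD4 T cells, and the replication genes Rrm2 and Mcm6 had 2.79 and 2.61 against -1.28 and -0.46. C1qbp, a mitochondrial protein, had 3.06 against -0.43 at 3 days and 2.96 against -0.41 at 7 days. H2-Aa had 3.21 against -0.35 and 3.24 against -0.30, from the few members named above. Rora had -1.19 against 0.62 at 3 days and -1.27 against 1.78 at 7 days. At 3 days Ltb (lymphotoxin beta) had -1.11 against 0.23 and S100a4 had 1.09 against -0.87. At 7 days the phosphatase Dusp5 had -1.40 against 0.91, the kinase Pim1 -1.04 against 0.75 and the mRNA-decay factor Zfp36 -1.41 against 0.40.

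Barcodes with Foxp3 and a CD3 gene that the rule left out made up 0.779% of 3-day WGP, above 0.457% in PBS. They enter only the shares given with no exclusion.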

How the results depend on the processing

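Genes past the threshold against conventional CD4 T cells numbered 303, and 95 with DESeq2, 183 with no library block, 134 after thinning and 153 without the deepest member of each library. Leaving out 1 library gave 234 to 258. Against CD8 T cells 485 passed, 321 with DESeq2, 211 after thinning and 428 to 630 with 1 library left out. Of the 64 named genes 36 passed with DESeq2, 42 with no library block, 19 after thinning and 42 without the deepest members, and 44 to 57 with 1 library left out. Each named gene was tested in 7 to 15 of the alternatives, and 63 kept their direction and 26 also their call in those. Mki67 reversed to -0.22 without the deepest members, whose cells held most of its UMIs in PBS and at 3 days. Shares of members in PBS, 3-day WGP and 7-day WGP were 0.869%, 1.16% and 4.94% of CD3 barcodes, 0.0953%, 0.225% and 0.934% with at least 2 Foxp3 UMIs, 0.667%, 1.17% and 1.49% with no exclusion, 0.0762%, 0.0615% and 0.503% after thinning, 0.294%, 1.04% and 0.414% within Xist barcodes, and 0.0576%, 0.478% and 1.88% within Y-linked barcodes. The 272 genes past the fold at 3 days were 627 with a minimum of 10 UMIs, 71 with 40 and 160 with at least 2 Foxp3 UMIs. The 982 at 7 days were 598 with a minimum of 40 UMIs, 582 with at least 2 Foxp3 UMIs and 572 with at least 1 Cd4 UMI. The median share of members with a UMI of a core gene was 9.09%, 15.8% and 15.2% after thinning, and 52.6% and 58.7% at 3 and 7 days without. Apart from Mki67 and the alternatives that use fewer cells, UMIs or libraries, the cause of these moves was not tested. Leaving out members with UMIs of other cell types, leaving out the deepest members and lifting the exclusions were chosen after seeing the data. Library ratios within Xist or Y-linked members could not be given, since PBS had 6 and 1. No paired analysis of WGP against PBS was possible because each group had 1 library. The tests between cell classes were paired within each library by the block. With 11 PBS members, levels under 3 UMIs could not be told from 0.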
